A study of Mus musculus with 4 samples.

Results

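The integrated stress response and amino acid response genes described here are 32 named genes, taken from the deposited expression table by symbol. They comprise the kinases that start the response, its transcription factors and the targets of those factors. The table held 33 entries for them among 36088 genes, because the symbol Ddit3 stands on 2 gene entries. RNA came from wild-type mouse male germ cells that had been sorted out of cultured fetal testes. The cultures were given CBR-5884, a compound that blocks serine metabolism per the labels and is known to act on Phgdh, which opens the pathway of serine synthesis, or the solvent DMSO. The series has 2 CBR-5884 libraries and 2 DMSO libraries. Its design text calls them biological replicates, and all sample titles give day 14. The sources used here give no dose, no duration of treatment and no assignment of testes to cultures.

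When an amino acid runs short, or when the endoplasmic reticulum or mitochondria are stressed, a kinase phosphorylates the initiation factor eIF2. Most translation then slows, while the mRNA of the transcription factor Atf4 is translated more. Atf4 pairs with C/EBP proteins on composite C/EBP-ATF elements and switches on genes for amino acid synthesis and uptake, together with brakes that end the response. Much of the control of Atf4 lies in translation, so RNA levels report on its mRNA and on its targets, and not on Atf4 protein or on eIF2 phosphorylation.

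The promoter windows show which members hold a match to a C/EBP-ATF motif close to a listed start. Binding at the matches was not measured, and sequence outside the windows was not searched. Windows from 250 bases before to 50 bases after a start (RefSeq, build GRCm38.p6) were listed for 29 of the 32 genes, and Slc7a5, Slc7a3 and Eif4ebp1 had none in the table. Some genes have several starts, so the 29 genes had 38 windows, and all 27025 genes had 32851. A gene counts if any of its windows holds a match. The motif TGATGNAA, searched on both strands, occurred in 10 of these 29 genes (34.5%), against 1219 of 27025 genes in the whole table (4.51%). Its stricter form TGATGCAA, whose matches all count among those of TGATGNAA, occurred in 7 of the 29 genes (24.1%), against 279 of 27025 (1.03%). Many members are known as targets of Atf4 from other work, so these shares describe the list and are no test of it. The 11 matches are printed below, each in a window of 30 bases on the strand of its gene, 5′ to 3′, with the match in capitals. Where the match lies on the other strand, the capitals are its reverse complement.
Chac1 chr2:119351038-119351067 (+): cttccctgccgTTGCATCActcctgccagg
Asns chr6:7693214-7693243 (-): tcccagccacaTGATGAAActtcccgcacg
Trib3 chr2:152344028-152344057 (-): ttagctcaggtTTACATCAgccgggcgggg
Atf3 chr1:191183425-191183454 (-): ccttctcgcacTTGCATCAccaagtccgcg
Jdp2 chr12:85599372-85599401 (+): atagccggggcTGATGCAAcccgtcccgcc
Herpud1 chr8:94386306-94386335 (+): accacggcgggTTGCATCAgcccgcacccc
Pck2 chr14:55540152-55540181 (+): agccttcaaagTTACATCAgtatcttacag
Nupr1 chr7:126625562-126625591 (-): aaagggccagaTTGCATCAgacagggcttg
Vldlr chr19:27216809-27216838 (+): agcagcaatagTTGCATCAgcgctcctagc
Slc7a11, first site, chr3:50443661-50443690 (-): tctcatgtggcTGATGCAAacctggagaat
Slc7a11, second site, chr3:50443642-50443671 (-): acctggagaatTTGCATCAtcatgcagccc

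By the RefSeq starts, the match of Trib3 begins 15 bases into the transcribed part, and the other matches lie between 200 and 23 bases before the start. For Asns, Atf3, Jdp2, Nupr1 and Vldlr, this start and the match lie inside the longer span of the gene in GENCODE. For Trib3 the GENCODE span starts at base 152344032 on the minus strand, and the match lies before that start. For Chac1, the member with the smallest p below, the whole 250 bases before the start are shown, with the match in capitals (chr2:119350992-119351241, plus strand). The same stretch of Slc7a11 holds 2 matches that face each other (chr3:50443614-50443863, minus strand).
Chac1: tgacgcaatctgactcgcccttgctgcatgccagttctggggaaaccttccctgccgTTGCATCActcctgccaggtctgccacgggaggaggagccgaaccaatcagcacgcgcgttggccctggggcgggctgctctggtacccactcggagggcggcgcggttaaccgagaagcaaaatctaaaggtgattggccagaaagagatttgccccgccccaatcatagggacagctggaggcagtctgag
Slc7a11: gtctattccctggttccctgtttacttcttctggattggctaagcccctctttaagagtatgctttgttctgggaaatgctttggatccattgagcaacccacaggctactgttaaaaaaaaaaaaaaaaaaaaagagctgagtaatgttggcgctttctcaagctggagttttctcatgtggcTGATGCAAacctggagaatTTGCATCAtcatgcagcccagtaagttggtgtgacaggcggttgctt

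The libraries held an estimated 22400000 to 28200000 reads, and 22100 to 22988 genes had a value above 0. The estimate of reads is rough, because most low values were not whole multiples of the step of 1 read on which it rests. Levels are given as TPM, transcript abundance scaled to the library total and corrected for transcript length. The deposited totals were not quite equal, at 966761 to 1002976. Germ cell markers were present in every library: none of the 10 genes averaged under 1 TPM. Their sum was 2841 and 2776 TPM with CBR-5884 and 2911 and 2821 TPM with DMSO, led by Dazl. Markers of other testis cells were lower but not absent. The 8 Sertoli cell markers, which include Amh, Sox9 and Wt1 and were led by Clu, summed to 244 and 202 TPM with CBR-5884 and to 288 and 167 TPM with DMSO. The 5 leukocyte markers, led by Csf1r, summed to 6.28 and 17.3 TPM with CBR-5884 and 7.88 and 12.6 TPM with DMSO. The 5 Leydig cell markers, led by Star and with 4 averaging under 1 TPM, summed to 4.48 and 4.72 TPM with CBR-5884 and 6.70 and 5.15 TPM with DMSO. The 7 peritubular and stromal markers, led by Col1a1, summed to 58.9 and 54.0 TPM with CBR-5884 and 57.2 and 45.6 TPM with DMSO, and the 3 endothelial markers, led by Pecam1, to 8.89 and 8.14 TPM with CBR-5884 and 8.66 and 7.79 TPM with DMSO. Of the 5 red blood cell markers, Hbb-bs, Hbb-bt and Hba-a1 were listed at 0 in all 4 libraries, and the sum, led by Alas2, was 1.74 and 0.707 TPM with CBR-5884 and 1.42 and 1.45 TPM with DMSO. In such bulk samples, fewer cells of a type and less RNA per cell cannot be told apart.

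The stress response genes differed little between CBR-5884 and DMSO. Of the 33 entries, 31 had a mean of at least 1 TPM and were tested, and 0 of them passed an adjusted p under 0.05 in either direction (limma over 14920 genes, Benjamini-Hochberg), where 0% of all genes tested did. The smallest adjusted p among the members was 0.998. Without adjustment, 0 members had a p under 0.05 in this fit, against 3.66% of all genes (546 of 14920), 1.51% higher and 2.15% lower. The median log2 fold change of the 31 was 0.06, on the scale of log2(TPM + 1), and −0.01 over all genes tested. Among the 31, 22 had a positive fold change, against 47.2% of all genes, and 9 a negative one. This excess varied with the library left out, and fell most without DMSO library 4. Without DMSO library 4, 16 of 31 were positive and the median was 0.01. Without DMSO library 2, 19 were positive and the median was 0.13. Without CBR-5884 library 2, 19 were positive, and without CBR-5884 library 4, 22, both with a median of 0.06.

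How large a change these libraries could have missed is given by the 95% intervals of the fold changes. Of the 31 intervals, 30 lay wholly within a 2-fold change in either direction (96.8%, against 85.4% of all genes tested). The exception was Stc2, whose interval reached 1.24 on the log2 scale. Within 1.5-fold lay 17 of the 31 intervals (54.8%, against 58.3% of all genes). Because 1 is added to each TPM, fold changes of genes with a few TPM are understated.

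**Figure D1:**
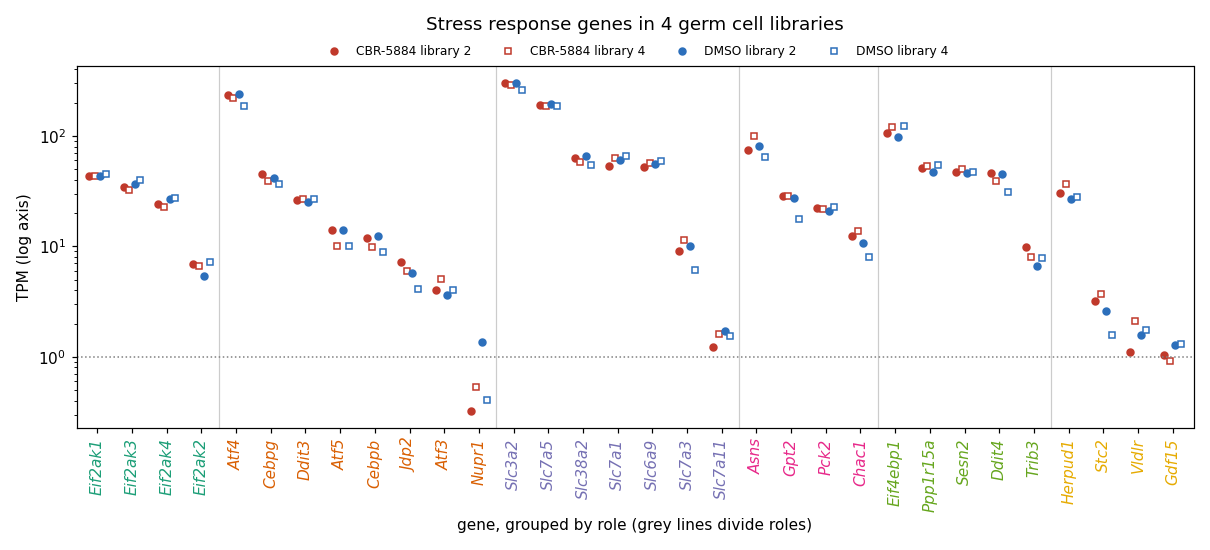
TPM (log axis) of the 32 genes in each of the 4 libraries, with genes grouped by role and roles divided by grey lines and name colours; the Ddit3 entry at 0 TPM in 3 libraries is not drawn. Red points are CBR-5884 and blue points DMSO, filled for library 2 and open for library 4, and the dotted line marks 1 TPM; levels run from about 300 TPM for Slc3a2 to under 1 TPM for Nupr1 in 3 of 4 libraries.

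All 4 eIF2 kinases were expressed, and 3 of them had lower values in both CBR-5884 libraries than in both DMSO libraries. Groups did not overlap for 10 of the 31 tested members, 6 higher and 4 lower with CBR-5884. Over all genes tested 31.3% did not overlap, 13.6% higher and 17.7% lower, so the members' shares were near the background. Eif2ak4, also called Gcn2, senses uncharged tRNA when amino acids are scarce (chromosome 2, 118388618 to 118475234, GRCm38). Its level was 24.1 and 22.8 TPM with CBR-5884 and 27.1 and 27.5 TPM with DMSO. Both CBR-5884 values lay below both DMSO values, with a log2 fold change of −0.21 (SE 0.11, 95% interval −0.48 to 0.06, limma adjusted p = 0.998). Eif2ak3, or Perk, responds to unfolded protein in the endoplasmic reticulum, and had 34.7 and 32.1 TPM with CBR-5884 and 36.4 and 39.5 TPM with DMSO (log2 fold change −0.18, interval −0.44 to 0.08). Eif2ak1, the kinase that senses low heme and relays mitochondrial stress, was the most abundant of the kinases, with 43.3 and 42.9 TPM with CBR-5884 and 43.7 and 45.2 TPM with DMSO. Its groups were also apart, but by little (log2 fold change −0.04, interval −0.27 to 0.18). It shares 10.3% of its 31-base words (all runs of 31 bases in its transcripts) with other genes, mostly with Aimp2 on the opposite strand.

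Eif2ak2, or Pkr, the kinase of double-stranded RNA, was the least abundant kinase, with 6.97 and 6.59 TPM with CBR-5884 and 5.39 and 7.23 TPM with DMSO. The DMSO values enclosed those with CBR-5884. The summed level of the 4 kinases was 109 and 104 TPM with CBR-5884 and 113 and 119 TPM with DMSO. By mean level the order was Eif2ak1, Eif2ak3, Eif2ak4 and Eif2ak2. Within each library neighbours in this order did not exchange places.

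The transcription factors of the response were led by Atf4, which ranked with the most abundant genes of these cells. Atf4, the central factor (chromosome 15, 80255184 to 80257541), had 233 and 219 TPM with CBR-5884 and 237 and 187 TPM with DMSO. Both CBR-5884 values lay inside the range of the DMSO values, and the log2 fold change was 0.10 (SE 0.12, interval −0.19 to 0.39). Its level lay at the 94.6th percentile of the genes tested. Cebpg, a C/EBP protein that forms heterodimers with Atf4, had 45.0 and 39.2 TPM with CBR-5884 and 41.8 and 36.8 TPM with DMSO, with overlapping groups. Ddit3, or Chop, a factor that promotes cell death under prolonged stress, had 26.3 and 27.1 TPM with CBR-5884 and 24.9 and 26.6 TPM with DMSO (log2 fold change 0.05, interval −0.22 to 0.32).

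The other entry of Ddit3, an overlapping gene model, had 2.66 TPM in CBR-5884 library 2 and was listed at 0 in the other libraries. All of its 31-base words also occur in the main entry (100%), so the split of reads between both is uncertain. Summed over both entries, Ddit3 had 29.0 and 27.1 TPM with CBR-5884 and 24.9 and 26.6 TPM with DMSO, and on this sum the groups did not overlap.

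Atf5, a factor whose translation is controlled like that of Atf4, had 14.1 and 10.2 TPM with CBR-5884 and 13.9 and 10.2 TPM with DMSO. Its libraries sorted by number and not by treatment, with both libraries numbered 2 above both numbered 4. Cebpb, a C/EBP factor induced by many stresses, had 12.0 and 9.76 TPM with CBR-5884 and 12.5 and 8.86 TPM with DMSO, again with both libraries numbered 2 on top. Cebpb shares 19.6% of its 31-base words with other genes, mostly with Tmem189, which overlaps it on the opposite strand, so its share of reads is uncertain. Jdp2, a repressor that binds AP-1 and related sites, had 7.15 and 5.95 TPM with CBR-5884 and 5.75 and 4.08 TPM with DMSO. Its groups did not overlap, and the log2 fold change was 0.36 (interval −0.22 to 0.94). Atf3, an early stress factor that is a target of Atf4, had 4.03 and 5.10 TPM with CBR-5884 and 3.60 and 4.05 TPM with DMSO, and its groups overlapped narrowly. Nupr1, a small stress-induced chromatin protein, was left out of the test, with 0.322 and 0.530 TPM with CBR-5884 and 1.36 and 0.405 TPM with DMSO. Of the 7 tested entries in this role, 7 had a positive fold change, against 47.2% of all genes tested. On the log2 scale the values ran from 0.006 for Atf5 to 0.36 for Jdp2, with a median of 0.10. Leaving out DMSO library 4 left 4 positive, with a median of 0.01, and leaving out CBR-5884 library 2 left 5.

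**Figure D2:**
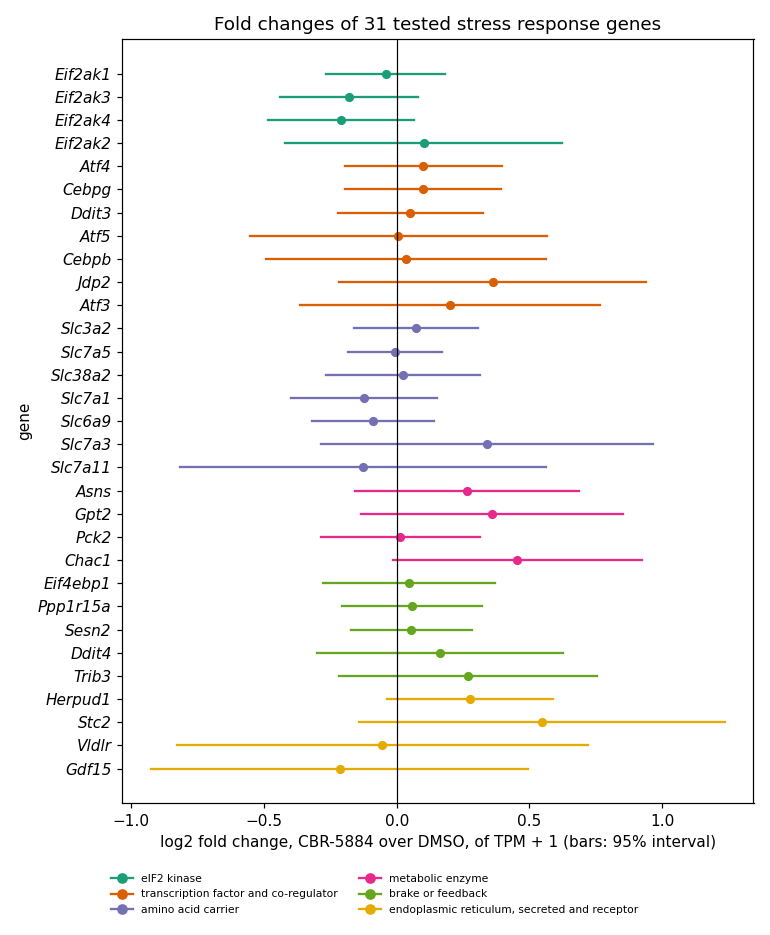
Log2 fold change of TPM + 1, CBR-5884 over DMSO, of the 31 tested genes, as points with 95% intervals from limma, coloured by role and ordered by mean level within a role. All 31 intervals cross 0; Stc2 and Chac1 lie farthest to the right, at 0.55 and 0.45, and Gdf15 and Eif2ak4 farthest to the left, at −0.22 and −0.21.

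Amino acid carriers included the most abundant member of all, and the groups overlapped for each of the 7, where 31.3% of all genes tested had groups that did not overlap. Slc3a2 encodes the heavy chain that carries Slc7a5, Slc7a11 and other light chains to the cell surface. It had 301 and 287 TPM with CBR-5884 and 302 and 259 TPM with DMSO. Slc7a5, the large neutral amino acid transporter that pairs with it, had 191 and 185 TPM with CBR-5884 and 193 and 184 TPM with DMSO. It had the narrowest interval of these carriers, from −0.18 to 0.17, around a log2 fold change of −0.01. The ratio of Slc3a2 to Slc7a5 was 1.58 and 1.55 with CBR-5884 and 1.56 and 1.40 with DMSO.

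Slc7a11, the cystine-glutamate exchanger that shares Slc3a2, was near the limit of the test, with 1.22 and 1.60 TPM with CBR-5884 and 1.70 and 1.56 TPM with DMSO. This gene, whose window holds the 2 facing matches printed above, therefore lay at the 7.22nd percentile of level, while its heavy chain lay at the 96.3rd. Slc7a1, a carrier of arginine and lysine, had 53.0 and 62.7 TPM with CBR-5884 and 60.4 and 65.5 TPM with DMSO. Slc7a3, another carrier of cationic amino acids, was lower, at 9.16 and 11.4 TPM with CBR-5884 and 9.99 and 6.16 TPM with DMSO, and DMSO library 4 stood below the other libraries. Slc38a2, which takes up small neutral amino acids, had 63.6 and 58.4 TPM with CBR-5884 and 66.0 and 54.5 TPM with DMSO. Slc6a9, the glycine transporter, had 51.8 and 56.4 TPM with CBR-5884 and 56.0 and 59.2 TPM with DMSO. It shares 28.4% of its 31-base words with other genes, most of them with Ccdc24 on the opposite strand (26.1%), which makes its value uncertain.

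Of the metabolic enzymes, Chac1 had the smallest p of all members and Gpt2 also had groups that did not overlap. Chac1, which degrades glutathione and is a sensitive target of Atf4 (chromosome 2, 119351229 to 119354381), had 12.4 and 13.9 TPM with CBR-5884 and 10.7 and 8.05 TPM with DMSO. Both CBR-5884 values were above both DMSO values. The fold was 1.37 (95% interval 0.991 to 1.90, log2 fold change 0.45, SE 0.19, unadjusted p = 0.055, limma adjusted p = 0.998). Gpt2, the mitochondrial alanine transaminase, had 28.6 and 28.3 TPM with CBR-5884 and 27.1 and 17.7 TPM with DMSO. Its values were close in 3 libraries, and DMSO library 4 was low. Asns, the asparagine synthetase (chromosome 6, 7675169 to 7693254), had 74.6 and 100.4 TPM with CBR-5884 and 80.7 and 64.0 TPM with DMSO. The groups overlapped, with the highest value in CBR-5884 library 4 and the lowest in DMSO library 4 (log2 fold change 0.26, interval −0.16 to 0.69). Pck2, the mitochondrial enzyme that makes phosphoenolpyruvate, had 22.4 and 21.6 TPM with CBR-5884 and 20.8 and 22.8 TPM with DMSO. The median log2 fold change of the 4 enzymes was 0.31, but 0.09 without DMSO library 4, 0.53 without DMSO library 2 and 0.21 when CBR-5884 library 4 was left out.

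Brakes and feedback genes of the response had a median log2 fold change of 0.06. The fold change was positive for 5 of 5, against 47.2% of all genes tested, and for 3 of 5 without DMSO library 2. Trib3, a pseudokinase that binds Atf4 and dampens it, had 9.94 and 8.02 TPM with CBR-5884 and 6.68 and 7.88 TPM with DMSO. Its groups did not overlap, although CBR-5884 library 4 and DMSO library 4 nearly met (log2 fold change 0.27, interval −0.22 to 0.75). Ppp1r15a, or Gadd34, which brings a phosphatase to eIF2, had 51.2 and 53.7 TPM with CBR-5884 and 46.6 and 54.4 TPM with DMSO. Sesn2, a leucine sensor that restrains mTORC1, had 46.8 and 50.1 TPM with CBR-5884 and 46.0 and 47.1 TPM with DMSO, with overlapping groups and an interval of −0.17 to 0.28. Ddit4, or Redd1, another brake on mTORC1, had 45.7 and 39.2 TPM with CBR-5884 and 45.6 and 31.1 TPM with DMSO. Eif4ebp1, which binds the cap-binding protein eIF4E and blocks initiation, had 106 and 121 TPM with CBR-5884 and 97.2 and 123 TPM with DMSO. In both genes the DMSO libraries lay farther apart than the libraries with CBR-5884.

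Genes of the endoplasmic reticulum and of secreted or surface proteins ranged from about 30 TPM to about 1 TPM. Herpud1, which helps to clear misfolded proteins from the endoplasmic reticulum (chromosome 8, 94386438 to 94395377), had 30.5 and 36.6 TPM with CBR-5884 and 26.7 and 28.2 TPM with DMSO. Both values with CBR-5884 were the higher ones (log2 fold change 0.28, SE 0.13, interval −0.04 to 0.59, limma adjusted p = 0.998). Stc2, a secreted glycoprotein, had 3.19 and 3.70 TPM with CBR-5884 and 2.60 and 1.57 TPM with DMSO, and its log2 fold change of 0.55 was the largest of the 31. Its groups did not overlap, and its interval of −0.14 to 1.24 was wide. Gdf15, a secreted stress cytokine, had 1.04 and 0.912 TPM with CBR-5884 and 1.28 and 1.30 TPM with DMSO, just above and below the limit for testing. Vldlr, a lipoprotein receptor, had 1.10 and 2.12 TPM with CBR-5884 and 1.58 and 1.74 TPM with DMSO, so the libraries with CBR-5884 enclosed those with DMSO.

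Libraries of 1 condition differed among themselves. The median absolute log2 difference between both CBR-5884 libraries was 0.15 over the 31 members and 0.15 over all genes tested. Between both DMSO libraries it was 0.21 for the members and 0.17 for all genes. DMSO library 4 was the lowest library for 13 of the 31 members (41.9%, against 28.9% of all genes tested), among them Atf4, Asns, Chac1, Gpt2, Slc7a3 and Stc2. It was also the highest for 10 of the 31 members, including all 4 kinases, and for 4140 of all 14920 genes tested. For 5 members, Atf4, Cebpb, Slc38a2, Slc3a2 and Slc7a5 (16.1%, against 6.32% of all genes), the libraries stood in the same order as the summed Sertoli cell markers: DMSO library 2, CBR-5884 library 2, CBR-5884 library 4 and DMSO library 4. The part of Sertoli cell RNA in these values was not tested.

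**Figure D3:**
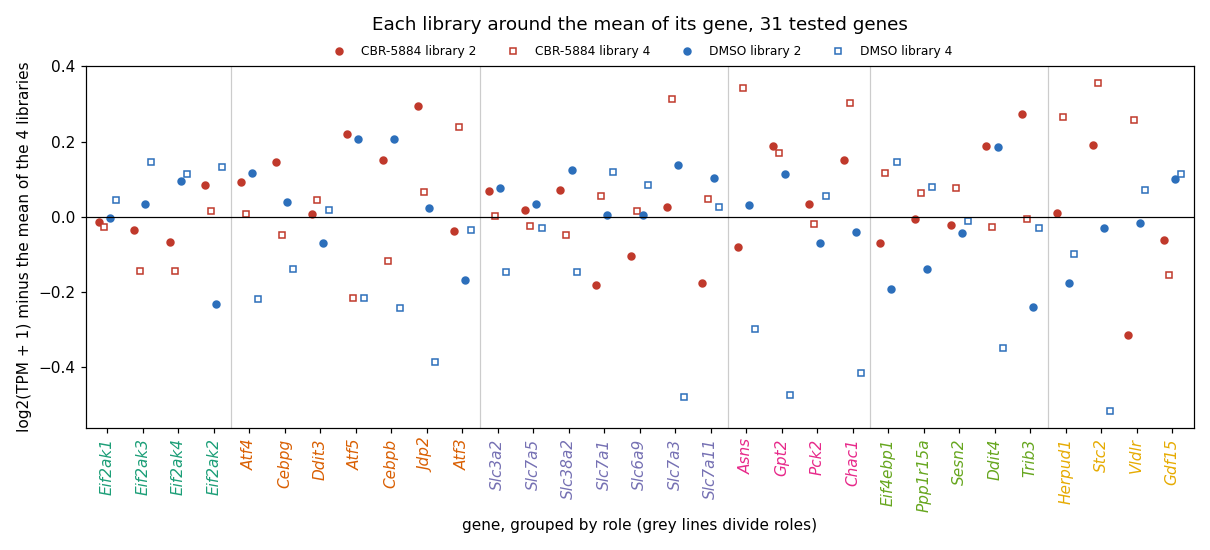
Log2(TPM + 1) of each library minus the mean of the 4 libraries, for the 31 tested genes grouped by role as in the plot of levels; red is CBR-5884, blue DMSO, filled points library 2 and open points library 4. The open blue points of DMSO library 4 are lowest for 13 genes, with the widest gaps at Stc2, Slc7a3, Gpt2 and Chac1, and highest for 10 genes, including the 4 kinases.

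Members with a promoter match and those without can be set side by side, as a description chosen after the values were known. The 9 tested genes with a TGATGNAA match in their window, shown at the outset, had a median log2 fold change of 0.26, with 7 positive and 2 negative, and groups that did not overlap in 4, all higher with CBR-5884. The 19 tested genes whose window held no match had a median of 0.05, with 13 positive and 6 negative, and groups that did not overlap in 6, 2 higher and 4 lower. Of all genes tested, 47.2% were positive and 31.3% did not overlap, 13.6% higher and 17.7% lower. Leaving out 1 library at a time, the median of the 9 ranged from 0.06 without CBR-5884 library 4 to 0.25 without CBR-5884 library 2, and that of the 19 from −0.05 without DMSO library 4 to 0.08 without CBR-5884 library 4. Without CBR-5884 library 4 the genes with a match therefore had the lower median. Single genes crossed this division, since Stc2 and Gpt2 had no match and Slc7a11, with 2 matches, had a log2 fold change of −0.13.

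**Figure D4:**
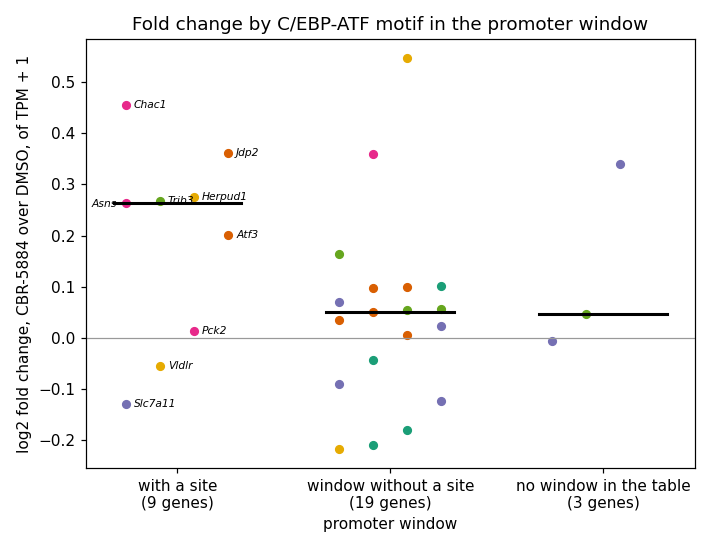
Log2 fold change of TPM + 1, CBR-5884 over DMSO, of the 31 tested genes, split by whether the promoter window holds the C/EBP-ATF motif TGATGNAA, holds none or is not in the table; colours are roles as in the plot of fold changes and black bars are medians. The 9 genes with a match lie from −0.13 to 0.45 and the 19 without from −0.22 to 0.55, so both groups span much the same range.

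Other genes of the pathway were read from lists written down for this purpose. The lists were chosen with earlier results of these data known, so their counts are descriptions and no test. In these lists, 0 of the tested genes passed the threshold in either direction (limma over all genes). Among the 11 subunits of eIF2, the initiation factor that the kinases phosphorylate, and of eIF2B, its exchange factor, with related factors, the fold change was positive for 6 and negative for 5, with a median of 0.02. Eif2b4, a subunit of eIF2B, had 103 and 101 TPM with CBR-5884 and 119.7 and 134 TPM with DMSO. Its values with CBR-5884 were all below those with DMSO, with a log2 fold change of −0.30 (interval −0.52 to −0.09, unadjusted p = 0.012, limma adjusted p = 0.998). Eif2b1 had 89.5 and 85.2 TPM with CBR-5884 and 102 and 93.0 TPM with DMSO.

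Regulators of the kinases and of the eIF2 phosphatase had 9 of 12 tested genes at a negative fold change (median −0.07). Oma1, the mitochondrial protease that acts upstream of Eif2ak1, had 10.5 and 11.9 TPM with CBR-5884 and 15.0 and 14.1 TPM with DMSO. Its groups did not overlap (log2 fold change −0.35, interval −0.73 to 0.02, limma adjusted p = 0.998). Gcn1, the ribosome-bound activator of Eif2ak4, had 97.2 and 90.2 TPM with CBR-5884 and 102 and 102 TPM with DMSO, also without overlap. Its direction was that of Eif2ak4 itself, but neither passed the test.

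Serine and one-carbon genes known to respond to Atf4 had 8 of 10 tested genes at a positive fold change (median 0.15), and groups that did not overlap in 7, 6 higher and 1 lower with CBR-5884. Over all genes tested, 47.2% were positive and 31.3% did not overlap, 13.6% higher and 17.7% lower. CBR-5884 library 4 was the highest library for 7 of the 10 (70%, against 22.7% of all genes tested). The share of this 1 library in the counts of the list was not tested. Slc1a5, a carrier of neutral amino acids, had 21.3 and 33.5 TPM with CBR-5884 and 18.4 and 19.3 TPM with DMSO. The excess lay mostly in CBR-5884 library 4. Shmt2, which makes glycine from serine in mitochondria, had 209 and 229 TPM with CBR-5884 and 199.9 and 187 TPM with DMSO (log2 fold change 0.18, interval −0.02 to 0.38). The list of tRNA synthetases known to respond to Atf4, which also holds the tRNA exporter Xpot, was divided over its 13 tested genes, with 7 positive and 6 negative (median 0.02). Cars, which charges cysteine tRNA, had 108 and 118 TPM with CBR-5884 and 105 and 87.9 TPM with DMSO. Wars, which charges tryptophan tRNA, went the other way, with 42.9 and 48.2 TPM with CBR-5884 and 48.6 and 53.1 TPM with DMSO.

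The Xbp1 and Atf6 arms of the unfolded protein response, which act beside Eif2ak3, had 14 of 20 tested genes at a negative fold change (median −0.06). Manf, a secreted protein of endoplasmic reticulum stress, had 205 and 198 TPM with CBR-5884 and 229 and 227 TPM with DMSO (log2 fold change −0.17, unadjusted p = 0.0472, limma adjusted p = 0.998). Edem1, which takes misfolded glycoproteins to degradation, had 31.8 and 32.3 TPM with CBR-5884 and 27.7 and 27.4 TPM with DMSO, the opposite direction. Other amino acid carriers had a median of 0.02 over 17 tested genes, 10 of them positive. Slc7a4, a relative of the cationic amino acid carriers, had 2.94 and 5.82 TPM with CBR-5884 and 1.88 and 2.07 TPM with DMSO, and Slc43a2, a neutral amino acid carrier, had 19.5 and 16.9 TPM with CBR-5884 and 15.0 and 13.2 TPM with DMSO. Neither had overlapping groups, and both failed the test.

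Other ATF, CREB and C/EBP factors had 10 of 14 tested genes at a positive fold change (median 0.07). Atf7 had 40.9 and 43.8 TPM with CBR-5884 and 37.0 and 39.1 TPM with DMSO, and Creb3 had 15.1 and 9.51 TPM with CBR-5884 and 10.8 and 9.47 TPM with DMSO. Mitochondrial chaperones and proteases, which respond to mitochondrial protein stress together with Atf5, had 9 of 11 tested genes at a negative fold change (median −0.05). Dnaja3 had 94.4 and 91.7 TPM with CBR-5884 and 109 and 102 TPM with DMSO, and Hspd1, the chaperonin of the matrix, had 362 and 397 TPM with CBR-5884 and 399.6 and 422 TPM with DMSO.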

How the data were processed

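RNA-seq was made from 2 CBR-5884 and 2 DMSO libraries with a TruSeq RNA kit, per the labels' protocols. Reads passed through fastp and kallisto with build mm10, per the submitters' processing notes; the sources used here give neither versions nor strand settings. The deposited table holds TPM and scaled reads per base as gene-level signal values, repeated on each transcript line (469612 lines, per the file headers 1 per transcript and library), and a single line was kept for each gene in each library. The TPM totals were 966761 to 1002976. Low values (under 20.5 times the step of 1 read) came out whole, at a tolerance of 0.05, in only 35.4 to 36.3% of cases, so reads were not recovered and no count test was used. Depth was estimated from total and step, and is rough for the same reason.

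The genes that reached a mean of 1 TPM were tested with limma 3.58.1 (R 4.3.3, trend, two-sided) on log2(TPM + 1), without covariates, and adjusted by Benjamini-Hochberg over 14920 genes. An exact permutation test of 2 against 2 libraries cannot go below p = 0.333 and was not used. The library names give the condition and a number (2 or 4) that matches no label, so libraries are tied to their group and not to a labelled replicate. Named are all members and, of each pathway list, the 2 tested genes with the smallest p. Members and lists were chosen with earlier results of these data known. Coordinates and 31-base words shared between genes come from GENCODE M21 (GRCm38, the assembly of mm10), promoter windows from RefSeq.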

Additional observations from a re-analysis of the deposited data

How the results depend on the processing

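Beside the fit as reported, 13 alternatives were planned and 1 was added after the data were seen (both Ddit3 entries summed). The count of called members stayed at 0 in all 14, and 0 of the 47 genes named with a fold change was called in any. Among all tested genes, 0 were called as reported (546 at an unadjusted p under 0.05), but 1 was with scaled reads per base, Hspa1b, lower, and 1 with robust variance estimates, ENSMUSG00000118600, higher; both fell outside the rule for names. With equal library totals the median log2 fold change was 0.082 for the members and 0.015 for all genes tested. As reported these medians were 0.055 and −0.011, so both rose in this setting. The members' median ranged from 0.0086 to 0.13 when single libraries were left out. Slc7a5 changed sign with equal library totals (0.021) and with equal median ratios (0.0079). The count of 0 members at an unadjusted limma p under 0.05 did not hold in every alternative. Chac1 fell under 0.05 with a pseudocount of 0.1, equal library totals, equal median ratios and scaled reads per base. With scaled reads per base Eif2ak4 did as well, at a negative fold change.

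Leaving out 1 library changed the sign of 13 named genes, whose fold changes on the log2 scale ranged as follows. Slc3a2 ranged from −0.040 to 0.18, Ddit4 from −0.10 to 0.43, Slc38a2 from −0.11 to 0.16, Eif2ak2 from −0.081 to 0.28 and Vldlr from −0.34 to 0.23. Eif4ebp1 ranged from −0.12 to 0.22, Atf5 from −0.21 to 0.22, Slc7a5 from −0.038 to 0.027, Ppp1r15a from −0.051 to 0.17 and Pck2 from −0.050 to 0.077. Atf4 ranged from −0.067 to 0.27, Cebpb from −0.19 to 0.26 and Creb3 from −0.081 to 0.53.

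The library numbers 2 and 4 are not known to pair the samples. With the number as a replicate block, 0 members and 0 genes were called. The members' median was again 0.06, which was fixed in advance, since a block cannot change fold changes in this balanced layout. The deviations of same-numbered libraries correlated at 0.20 over the tested genes. Where a library was left out, the single library of its group was assumed to vary like the other group.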
